A study of Homo sapiens with 10 samples.

Results

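Keratins were followed through the acetylation of histone H3 at lysine 27 (H3K27ac) and lysine 18 (H3K18ac) in a pair of prostate cancer cell lines. The keratin genes were taken as the protein-coding genes of GENCODE whose symbol is KRT and a number, without the keratin-associated proteins, and 55 of 20033 protein-coding genes met this rule. Of these, 27 lie in the type II cluster of chromosome 12, which also holds the type I gene KRT18, and 28 lie in the type I cluster of chromosome 17. By the tissue in which they are best known, 6 were grouped as simple epithelial, 3 as basal, 5 as activated or wound keratins, 14 as keratins of stratified differentiation, 9 as keratins of the inner root sheath and companion layer of the hair and 17 as hair shaft keratins, and 1 was left unclassed. KRT8, KRT18 and KRT19 were treated as luminal and KRT5, KRT14 and KRT15 as basal prostate keratins.

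Keratins are the intermediate filament proteins of epithelia and always assemble as pairs of a type I and a type II protein. In the prostate, secretory luminal cells contain KRT8 and KRT18, often with KRT19, and the basal cells beneath them contain KRT5 and KRT14 or KRT15. Most other keratins belong to the skin, to stratified mucosa or to hair, and their genes are usually silent in glandular tissue. Acetylation of H3 at both lysines is deposited at active promoters and enhancers.

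C4-2B cells are a prostate adenocarcinoma line that grows after castration, and C4-2BER is a derivative obtained by long culture of C4-2B in the prostate cancer drug enzalutamide, labelled as neuroendocrine-like. Both were grown in RPMI with serum, and per the study's methods C4-2BER was kept in enzalutamide continuously. The labels give no other genotype or treatment, so that each group is 1 cell line and the comparison is of these lines. The drug in the culture and the identity of the line cannot be told apart. ChIP-Seq was made from 2 libraries per mark and line and 1 input library per line, 10 in all. The authors merged the libraries of a mark and line before peak calling, so each of the 4 peak lists is 1 pool without replicate error, and no difference between the lines could be tested. The value of a peak is its fold enrichment over the local background as the peak caller reports it. The lists hold no read counts and the depth of the libraries is unknown, so a site without a peak may still carry the mark. Luminal genes carried the mark in both lines: the H3K27ac fold enrichment at the promoter was 20.3 in C4-2B and 13.8 in C4-2BER at KLK3, which encodes prostate-specific antigen, and 23.5 and 19.8 at HOXB13, a transcription factor of the prostate. TP63, the defining regulator of basal cells, had no promoter peak in any list. Of the neuroendocrine markers, CHGA, NCAM1 and INSM1 had no H3K27ac promoter peak in either line, SYP had 8.16 and 5.67, and ENO2 had 4.00 and 7.30. The H3K27ac lists hold 68034 peaks in C4-2B and 72971 in C4-2BER, and the H3K18ac lists hold 198451 and 197948.

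A promoter was the window of 1000 bp on each side of the canonical transcription start site (TSS), and its value was the highest fold enrichment of a peak that reached into it. Promoter sequences were looked up in the RefSeq table for GRCh38.p14, in which 34 of the 55 keratins have an entry and 33 have one at the canonical TSS. Keratins without an entry at the canonical TSS include KRT8, KRT18, KRT19, KRT7, KRT80, KRT14 and KRT15. Of the keratins with an H3K27ac promoter peak in both lines, only KRT2 is among the 33, so the counts below mostly describe keratins without H3K27ac. The letters TATAAA, searched on both strands, occur in the 250 bases before the TSS of 21 of these 33 keratins (63.6%) and of 10.7% of the 35097 promoters in the table. In 16 of the 33 they lie within 40 bases of the TSS, against 3.18% of the table. CpG dinucleotides are few in the 33, with a median of 2 in 250 bases against 11 over the table. Keratins outside the 33 can differ: the windows of 1000 bp on each side of the TSS hold 127 CpG at KRT19, 110 at KRT7, 90 at KRT18 and 58 at KRT8. The median over all 55 keratin windows is 28. The sequences below are those of keratins on which the counts that follow turn, and capitals mark TATAAA. All are read from the minus strand, 5′ to 3′, and end at the base before the TSS. KRT2 (chr12:52652212-52652461) was the keratin outside the simple epithelial class with the highest H3K27ac. KRT4 (chr12:52814117-52814366) and KRT36 (chr17:41489911-41490160) had an H3K27ac promoter peak in C4-2B only. The basal keratin KRT5 (chr12:52520395-52520644) had H3K18ac alone. The hair keratins KRT37 (chr17:41424586-41424835) and KRT38 (chr17:41440984-41441233) had the highest H3K18ac among promoters with a peak in C4-2B only.
KRT2: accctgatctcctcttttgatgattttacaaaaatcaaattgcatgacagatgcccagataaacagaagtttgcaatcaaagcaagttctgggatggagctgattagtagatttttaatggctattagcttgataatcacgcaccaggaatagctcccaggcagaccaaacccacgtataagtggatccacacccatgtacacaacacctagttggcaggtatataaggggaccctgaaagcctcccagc
KRT4: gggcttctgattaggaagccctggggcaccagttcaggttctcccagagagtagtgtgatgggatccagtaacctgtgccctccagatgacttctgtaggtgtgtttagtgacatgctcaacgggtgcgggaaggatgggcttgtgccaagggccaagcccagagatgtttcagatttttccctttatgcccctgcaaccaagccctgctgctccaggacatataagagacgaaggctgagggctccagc
KRT36: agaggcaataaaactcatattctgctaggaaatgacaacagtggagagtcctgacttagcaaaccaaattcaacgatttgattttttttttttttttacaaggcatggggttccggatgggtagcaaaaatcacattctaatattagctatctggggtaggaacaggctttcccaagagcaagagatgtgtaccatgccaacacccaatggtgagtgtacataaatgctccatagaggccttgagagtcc
KRT5: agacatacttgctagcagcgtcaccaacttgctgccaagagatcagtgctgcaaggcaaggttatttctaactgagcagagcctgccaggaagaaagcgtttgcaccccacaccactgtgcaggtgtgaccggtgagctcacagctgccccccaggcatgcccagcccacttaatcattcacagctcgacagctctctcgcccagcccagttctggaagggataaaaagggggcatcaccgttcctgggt
KRT37: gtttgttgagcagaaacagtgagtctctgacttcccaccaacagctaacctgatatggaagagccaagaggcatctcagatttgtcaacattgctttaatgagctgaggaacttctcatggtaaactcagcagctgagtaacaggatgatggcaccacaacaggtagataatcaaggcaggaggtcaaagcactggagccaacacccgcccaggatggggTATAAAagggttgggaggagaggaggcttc
KRT38: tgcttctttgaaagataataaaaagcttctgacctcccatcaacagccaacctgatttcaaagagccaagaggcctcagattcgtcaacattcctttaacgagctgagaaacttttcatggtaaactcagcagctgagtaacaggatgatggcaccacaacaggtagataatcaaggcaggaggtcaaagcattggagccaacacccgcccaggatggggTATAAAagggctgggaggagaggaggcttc
KRT37 and KRT38 each hold the letters 30 bases before the TSS, while the other 4 do not hold them in this window. A match of letters is a description of the sequence and not a binding site. Of the other motifs searched on both strands in the same 33 windows, TGANTCA occurred in 0 (6.57% of the table), AGAACA in 4 (12.4%) and TGTTTAC in 1 (2.98%).

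Most keratin promoters carried H3K18ac but not H3K27ac. In C4-2B, 9 of 55 keratin promoters (16.4%) had an H3K27ac peak, against 69.1% of all protein-coding promoters, and in C4-2BER 7 (12.7%) had one, against 69.6%. H3K18ac peaks were present at 45 keratin promoters (81.8%) in C4-2B, against 83.8% of all, and at 36 (65.5%) in C4-2BER, against 81.1%. Hence 36 keratin promoters (65.5%) in C4-2B and 29 (52.7%) in C4-2BER had H3K18ac alone, a state found at 3020 and 2404 of the 20033 protein-coding promoters. No keratin promoter had H3K27ac alone. The H3K18ac peaks at keratin promoters were mostly weak. Their median fold enrichment was 3.07 in C4-2B and 2.68 in C4-2BER, against 7.00 and 5.59 for all protein-coding promoters with a peak. Where a fold enrichment of at least 4 was required, only 6 keratin promoters in C4-2B and 5 in C4-2BER had H3K18ac. The H3K27ac peaks were unevenly spread over the classes: 3 of 6 simple epithelial keratins had one in both lines, 1 of 3 basal, 1 of 5 activated, 3 of 14 stratified in C4-2B and 2 in C4-2BER, 1 of 17 hair shaft keratins in C4-2B and 0 in C4-2BER, and 0 of 9 inner root sheath keratins in either line.

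**Figure D1:**
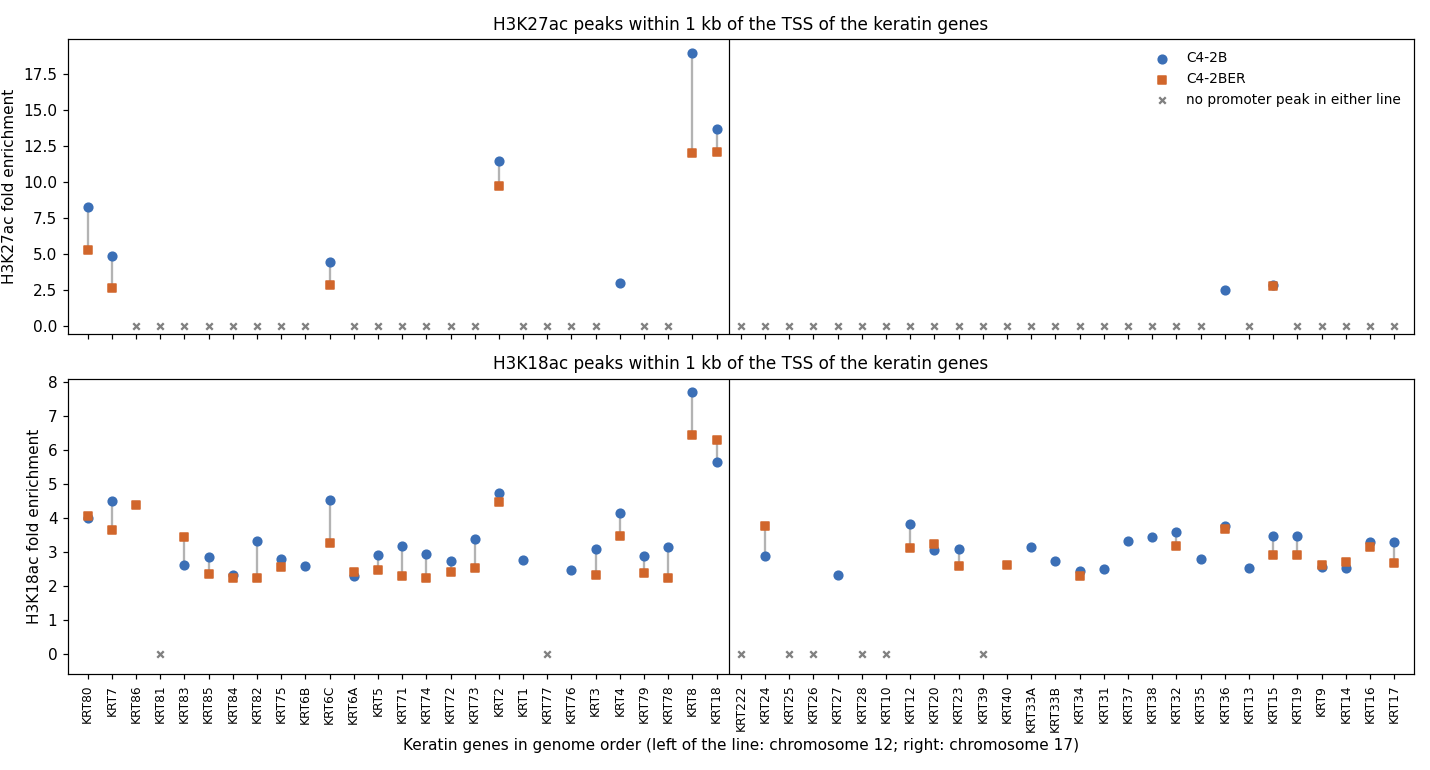
Fold enrichment of the H3K27ac (upper panel) and H3K18ac (lower panel) promoter peak of each of the 55 keratin genes, in genome order; circles are C4-2B, squares are C4-2BER, grey bars join the lines, and crosses at 0 are genes without a promoter peak in either list. H3K27ac was found at 9 promoters in C4-2B and 7 in C4-2BER, and H3K18ac at 45 and 36.

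KRT8 and KRT18, the type II and type I partners of simple epithelia, had the highest promoter values of both marks among the keratins. At the TSS of KRT8 (chromosome 12, position 52905076 of GRCh38, minus strand) the H3K27ac fold enrichment was 18.98 in C4-2B and 12.02 in C4-2BER, a log2 ratio of −0.66. At KRT18 (position 52949118, plus strand) it was 13.70 and 12.06, a log2 ratio of −0.18. Set against all promoters with a peak, KRT8 exceeded 53.8% of them in C4-2B and 46.8% in C4-2BER, and KRT18 exceeded 31.8% and 47.1%. The peak boundaries differed at KRT8. In C4-2B a peak of 7261 bp covered the TSS and a weaker one of 3.18 began 4300 bp downstream, while in C4-2BER 1 peak of 13709 bp covered both. Because the value of a broad peak is an average over its length, the mean over the merged peaks of both lines was also taken, a choice made after the data were seen, and it gave 12.66 in C4-2B and 12.02 in C4-2BER, a log2 ratio of −0.07. For H3K18ac, KRT8 had 7.71 and 6.43 (log2 ratio −0.26, and 0.15 over merged peaks), and KRT18 had 5.64 and 6.29 (0.16). Both genes had both marks at the promoter in both lines, and the sign of the KRT8 difference in H3K18ac depended on how the peak was averaged.

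The third luminal keratin, KRT19, which is the smallest keratin and lacks a tail domain, had no H3K27ac peak at its promoter in either line (TSS at chromosome 17, position 41528308, minus strand), although its promoter window was rich in G and C (63.7%, against a median of 50.9% for keratins). The closest H3K27ac peak lay 4215 bp downstream in C4-2B and 1263 bp upstream in C4-2BER, the latter with a fold enrichment of 2.36. Its H3K18ac was 3.46 and 2.91, and in C4-2B the peak of 12568 bp that covered it also covered the TSS of the neighbouring basal gene KRT15. H3K27ac was instead high upstream of KRT19: an intergenic region at chr17:41535012-41541574, centred 9985 bp upstream of the TSS, had 17.95 in C4-2B and 8.59 in C4-2BER, a log2 ratio of −1.06. H3K18ac over this region was 8.27 and 6.21 (−0.41). A further region centred 20337 bp upstream had H3K27ac of 7.34 and 5.34. KRT19 therefore differed from KRT8 and KRT18 in where H3K27ac was found in both lines, and no test of that difference was possible.

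The basal keratins were weakly marked. KRT5, the type II keratin of basal cells (TSS at chromosome 12, position 52520394, minus strand), had no H3K27ac promoter peak, and its closest one lay 19705 bp away in C4-2B and 46452 bp away in C4-2BER. KRT14, its type I partner (chromosome 17, position 41586895, minus strand), had none either, with the closest at 6683 and 6739 bp downstream. KRT15, a type I keratin of basal and hair follicle stem cells (chromosome 17, position 41518890, minus strand), had H3K27ac of 2.86 in C4-2B and 2.77 in C4-2BER, a value that exceeded 5.31% and 5.37% of the promoters with a peak. Neither KRT15 peak covered the TSS, as they began 342 bp upstream in C4-2B and 772 bp upstream in C4-2BER. H3K18ac was 2.91 and 2.47 at KRT5, 2.51 and 2.69 at KRT14, and 3.46 and 2.89 at KRT15. The 3 genes thus had H3K18ac peaks of low fold enrichment in both lines, and their log2 ratios were −0.23, 0.10 and −0.26. In the stretch between KRT14 and KRT16, an intergenic region at chr17:41599333-41602025 had H3K27ac of 6.45 in C4-2B and 10.04 in C4-2BER (0.64), with H3K18ac of 3.56 and 4.26 (0.26).

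**Figure D2:**
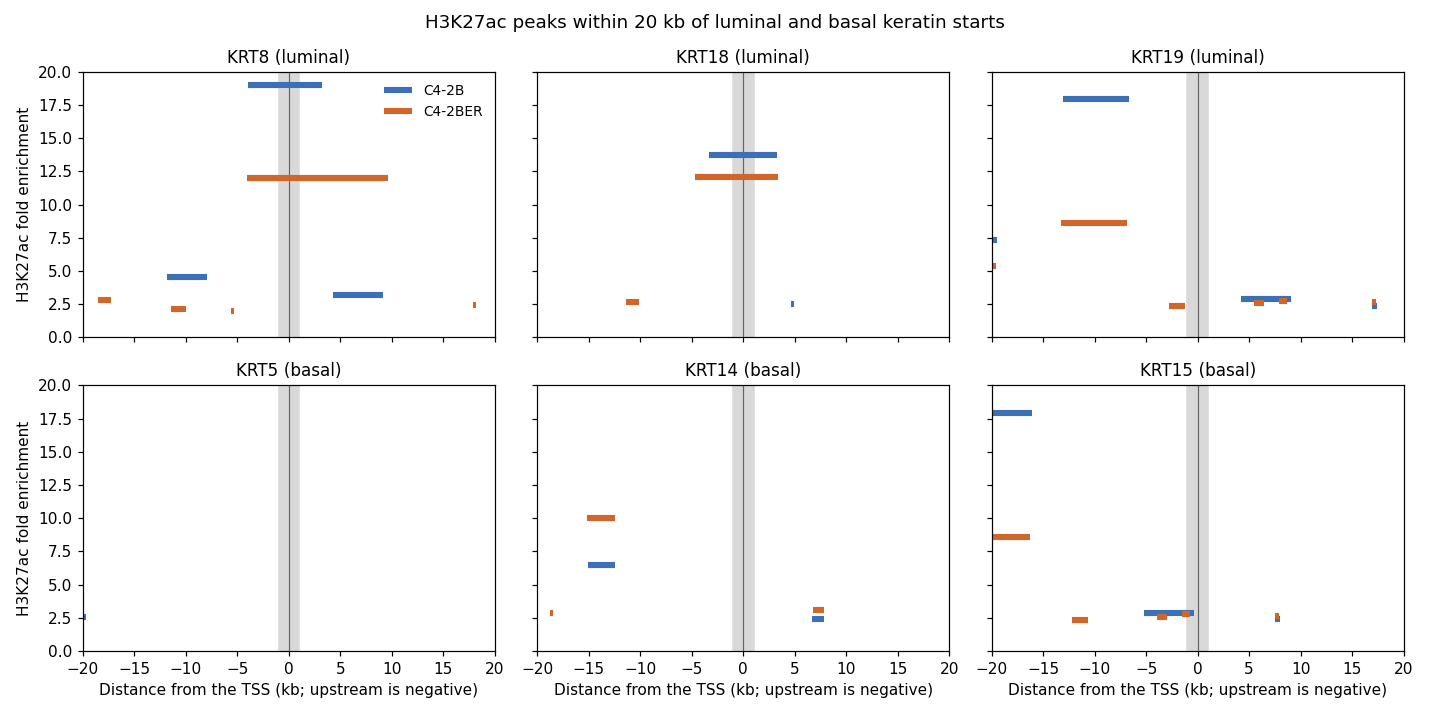
H3K27ac peaks within 20 kb of the TSSs of the 3 luminal (top row) and 3 basal (bottom row) keratins, plotted by distance from the TSS in kb along the direction of transcription and by fold enrichment; each bar spans 1 peak, blue for C4-2B and orange for C4-2BER, and the grey band is the promoter window. KRT8 and KRT18 have peaks of 12.02 to 18.98 over the TSS, KRT19 has its strongest peaks upstream (17.95 and 8.59), and KRT5 and KRT14 have none in the band.

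The other keratins with H3K27ac at the promoter had lower values in C4-2BER. KRT2, a type II keratin of the upper epidermis, had 11.42 in C4-2B and 9.73 in C4-2BER (log2 ratio −0.23), with H3K18ac of 4.73 and 4.45. KRT80, a type II epithelial keratin, had 8.22 and 5.29 (−0.63). KRT7, a type II keratin of ductal epithelium, had 4.87 and 2.65 (−0.88), and in C4-2BER the peak ended 781 bp before the TSS. KRT6C, an inducible wound keratin, had 4.43 and 2.82 (−0.65) in peaks of at most 354 bp that covered its TSS. KRT6A, KRT6B and KRT6C are near-identical in sequence, so that the value of KRT6C is uncertain. All 7 promoters with a peak in both lines were lower in C4-2BER, with a median log2 ratio of −0.63, but 88.2% of the 13393 protein-coding promoters with a peak in both lines were lower too, with a median of −0.51. When the C4-2BER values were rescaled by a robust line through all regions shared by the lines, 5 of the 7 were lower and 2 (KRT18, 0.18, and KRT2, 0.09) were higher. The direction at KRT18 and KRT2 thus differed between the scalings.

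A promoter was called increased where C4-2BER alone had a peak or its value was 2 or more times that of C4-2B, and decreased where the reverse held. For H3K27ac, 0 of 55 keratin promoters were increased, against a background of 3.31%, and 2 (3.64%) were decreased, against 8.01%. Both were weak and both were called by the absence of a peak. KRT4, a type II keratin of stratified mucosa, had a peak of 2.94 in C4-2B. KRT36, a type I keratin of hair and tongue papillae, had 2.48 in C4-2B, and in C4-2BER a stronger peak of 3.83 began 1016 bp upstream of the TSS, just outside the window. The nearest value inside the window was that of KRT7 in C4-2BER, 781 bp from the TSS.

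For H3K18ac, 11 of 55 keratin promoters (20%) were decreased in C4-2BER, against 6.12% of all protein-coding promoters, and 2 (3.64%) were increased, against 2.1%. All 11 had a peak inside the window in C4-2B only, and they were KRT6B, KRT1, KRT76, KRT27, KRT33A, KRT33B, KRT31, KRT37, KRT38, KRT35 and KRT13. At KRT6B and KRT31 the C4-2B peak overlapped a C4-2BER peak outside the window. Over merged peaks their log2 ratios were −0.11 and −0.12, and neither was decreased. At KRT33A, KRT13, KRT38 and KRT37 the nearest C4-2BER peak lay 1443, 1559, 1624 and 1723 bp from the TSS. At the remaining genes it lay 2483 (KRT35) to 13612 bp (KRT76) away. Of these, 6 are hair shaft keratins (KRT31, KRT33A, KRT33B, KRT35, KRT37 and KRT38), 8 lie on chromosome 17 and 3 on chromosome 12. KRT38 (3.43) and KRT37 (3.31) had the highest values and KRT27, a type I inner root sheath keratin, the lowest (2.31). These peaks were weak: the median of their fold enrichment was 2.73 and that of their −log10 q-value 2.47. Where a −log10 q-value of 5 or more was required, the 3 decreased promoters were KRT12, KRT15 and KRT19, and 5 were increased. The count of decreased H3K18ac promoters therefore rested on weak peaks, and the part of library depth in it was not tested. All 8 of the 11 that have a RefSeq entry at the canonical TSS hold TATAAA in the 250 bases before it, as do 7 of the 19 with a peak in both lines and 5 of the 5 with a peak in neither. The median GC content was 47.8% in the 11 windows, 54.2% in the 34 with a peak in both lines and 39.8% in the 8 with none.

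The 2 increased promoters were hair keratins. KRT86, a type II hair keratin, had a peak of 4.37 in C4-2BER that began 986 bp downstream of the TSS, just inside the window, while the closest peak in C4-2B (2.24) began 1096 bp downstream, just outside it. Over merged peaks KRT86 had 3.84 in C4-2B and 4.37 in C4-2BER (0.19) and was not increased. KRT86 is also a near-identical copy of KRT81 and KRT83. KRT40, a type I hair keratin, had a narrow peak of 2.60 and 303 bp in C4-2BER, and none within 1000 bp in C4-2B. The other 8 keratins, KRT81, KRT77, KRT222, KRT25, KRT26, KRT28, KRT10 and KRT39, had an H3K18ac promoter peak in neither line.

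The 34 promoters with H3K18ac in both lines had a median log2 ratio of −0.24, with 26 lower and 8 higher in C4-2BER, against a median of −0.34 and 85.8% lower for all 15844 such protein-coding promoters. After rescaling, 22 were lower and 12 higher. By class, the median was −0.26 for the simple epithelial, −0.18 for the activated, −0.25 for the stratified, −0.40 for the inner root sheath and −0.09 for the hair shaft keratins. The lowest ratios were those of KRT82, a type II hair cuticle keratin (3.31 and 2.24, −0.57), KRT78, a type II epithelial keratin (−0.49), and KRT6C (−0.48). The highest were those of KRT24, a type I epithelial keratin (2.88 and 3.76, 0.38), KRT83, a type II hair cortex keratin (2.63 and 3.42, 0.38), and KRT18 (0.16). In each of KRT24 and KRT83 the C4-2B peak was shorter than the C4-2BER peak, and over merged peaks the ratio was 0.17 at KRT24 and 0.36 at KRT83. No keratin with H3K18ac in both lines reached a ratio of 2 in either direction. KRT16 and KRT17, wound keratins of the same cluster, shared a single C4-2B peak of 20799 bp (3.28) and had separate C4-2BER peaks of 3.15 and 2.67.

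**Figure D3:**
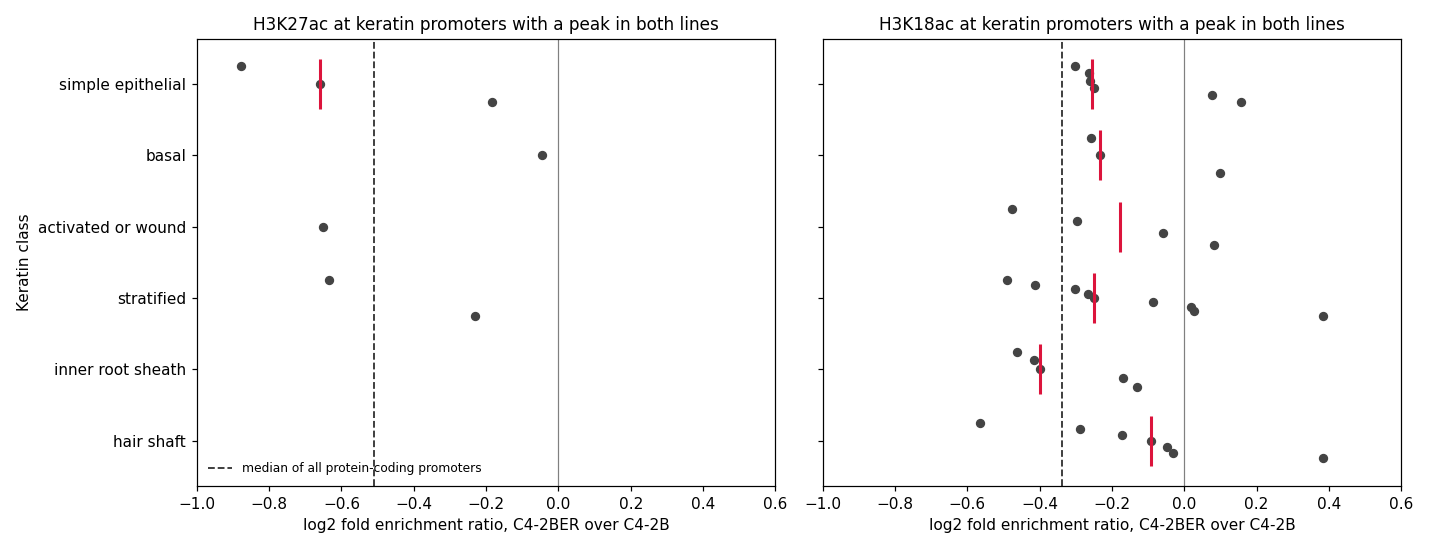
log2 ratio of the promoter fold enrichment, C4-2BER over C4-2B, for each keratin with a peak in both lines, by keratin class (7 genes for H3K27ac on the left, 34 for H3K18ac on the right); each point is 1 gene, the red bar is the median of classes with more than 2 genes, and the dashed line is the median of all protein-coding promoters (−0.51 and −0.34). The hair shaft median for H3K18ac was −0.09 and the inner root sheath median −0.40.

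The clusters were then examined between the genes. The chromosome 12 cluster (chr12:52168996-52952906, 784 kb) holds no other protein-coding gene. H3K27ac peaks covered 9.23% of it in C4-2B and 11.9% in C4-2BER, against 4.21% and 5.30% of chromosome 12. With equal numbers of the highest-fold peaks in both lines, the covered length was 63.3 kb in C4-2B and 62.7 kb in C4-2BER, so this difference depended on the weaker peaks. H3K18ac covered 41.5% and 41.4%, against 10.2% and 11.8% of the chromosome. The chromosome 17 cluster (chr17:40654665-41624842, 970 kb) also holds 35 other protein-coding genes, of which 34 are keratin-associated protein genes. There H3K27ac covered 3.69% and 4.80%, against 9.56% and 11.8% of chromosome 17, and H3K18ac 16.9% and 18.9%, against 22.1% and 21.8%. The chromosome 12 cluster was thus covered more than its chromosome by both marks in both lines, and the chromosome 17 cluster less. Over the whole genome, H3K27ac covered 3.79% in C4-2B and 4.69% in C4-2BER, and H3K18ac covered 9.49% and 10.4%. Against the genome, the chromosome 17 cluster was therefore close for H3K27ac and higher for H3K18ac.

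When overlapping peaks of the lines were merged, the clusters held 87 H3K27ac regions, of which 9 touched a keratin promoter and 78 did not. All 87 overlapped an H3K18ac region. Of the 87, 29 (33.3%) were increased in C4-2BER, against 30.5% of all H3K27ac regions in the genome, and 16 (18.4%) were decreased, against 22.7%. Of the 262 H3K18ac regions, 46 (17.6%) were increased, against 26.2%, and 54 (20.6%) decreased, against 23.5%. No increased H3K27ac region touched a keratin promoter. Of the 46 H3K27ac regions present in both lines, 33 were lower and 13 higher in C4-2BER.

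Among the merged H3K27ac regions of both clusters, the highest mean was at chr17:40818455-40819856, with 21.8 in C4-2B and 15.1 in C4-2BER (−0.53), and it did not mark a keratin TSS. The region lies over exon 7 of KRT10, the type I partner of KRT1 in the epidermis, 2887 bp downstream of its TSS in C4-2B, and it holds the TSS of the antisense transcript KRT10-AS1. KRT10 itself had no promoter peak of either mark. The intergenic region upstream of KRT19 described above came next among the merged means in C4-2B, above the merged KRT8 region (12.66), although the unmerged KRT8 peak was higher (18.98). Among regions with a higher value in C4-2BER, a region of 575 bp over exon 7 of KRT39, a type I hair keratin (chr17:40958451-40959025), had 3.78 and 8.12 (1.10), with H3K18ac of 4.11 and 5.97. Downstream of KRT6B, chr12:52444222-52445991 had a peak of 4.80 in C4-2BER only. Among regions with a lower value, chr12:52626339-52632563, over the keratin pseudogene KRT128P and upstream of KRT73, a type II inner root sheath keratin, had 5.68 and 2.42 (−1.23), with H3K18ac of 5.50 and 3.42 (−0.69). Upstream of the canonical TSS of KRT8, within longer transcripts of the gene, chr12:52913029-52916924 had 4.51 and 2.17 (−1.06). After rescaling, the log2 ratio was −0.71 upstream of KRT19, which is short of a ratio of 2, and −1.17 and −1.04 at these last regions. The KRT39 region stood at 1.26 and the region between KRT14 and KRT16 at 0.89 on that scale.

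**Figure D4:**
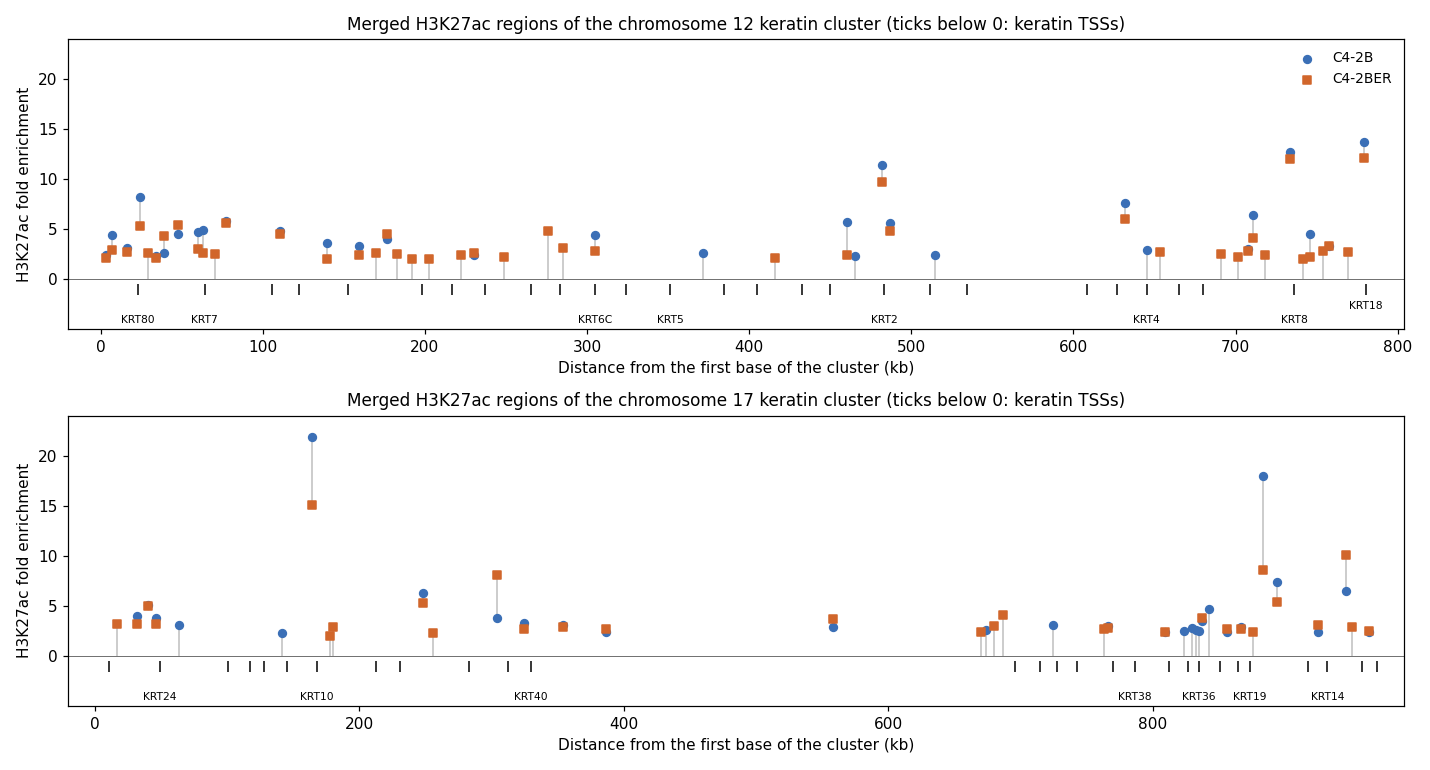
H3K27ac fold enrichment of the merged regions along the keratin clusters of chromosome 12 (upper panel, 48 regions) and chromosome 17 (lower panel, 39 regions), by distance from the first base of the cluster in kb; circles are C4-2B, squares are C4-2BER, grey bars join the lines or reach 0 where a line has no peak, and ticks below 0 are keratin TSSs, some of them named. Values reach 21.8 over KRT10 and 17.95 upstream of KRT19, in regions that cover no keratin TSS.

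Keratin filaments are anchored at desmosomes by plakins, and these genes were listed beside the keratins. Of 19 desmosome and plakin genes, 15 had H3K27ac at the promoter in both lines. None was increased, against 3.31% of all protein-coding promoters, and 4 were decreased, against 8.01%. The 4 were DSP, desmoplakin (30.5 in C4-2B and 11.6 in C4-2BER), the desmosomal cadherins DSC2 (35.5 and 14.8) and DSG2 (23.3 and 11.6), and PKP1, a plakophilin (8.04 and 3.66). After rescaling none of the 4 reached a ratio of 2, with log2 ratios of −0.94, −0.75, −0.57 and −0.98. The median log2 ratio over the list was −0.38, against −0.51 over all promoters. Of 15 other intermediate filament genes, 9 had H3K27ac in both lines and all 9 were lower in C4-2BER, with a median of −0.72, where 88.2% of all promoters were lower. After rescaling the median was −0.47. None of the 15 was increased, against 3.31% of all promoters, and 2 were decreased, against 8.01%. VIM, vimentin, had 19.2 and 8.15, and its rescaled log2 ratio of −0.88 was short of a ratio of 2. NEFM, a neurofilament gene, had a weak peak of 2.37 in C4-2B and none in C4-2BER. Of 14 regulators of epithelial genes, 13 had H3K27ac in both lines, 8 lower and 5 higher, with a median of −0.27. Of the 14, only KLF5 was decreased (15.9 and 7.23), against 8.01% of all promoters, and after rescaling its log2 ratio was −0.82, short of a ratio of 2. GRHL2 and ELF3, transcription factors of epithelia, had 10.8 and 11.8, and 11.6 and 12.4.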

How the data were processed

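Per the study's methods, ChIP-Seq reads were aligned to GRCh38 with bowtie2, and blacklisted regions, alignments of low mapping quality and duplicates were removed. The submitters' processing notes name Bowtie2 2.2.3 and Trimmomatic 0.33, while the study's methods give a later version of Bowtie2. The biological replicates were merged and macs2 was run, with options not given in the sources used here. In the deposited lists the fold enrichment is the ratio by which a broad peak, on average, exceeds its local background, and the authors add a significance as −log10 of the q-value. The low-quality filter removes reads that map equally well to near-identical keratins (KRT6A, KRT6B and KRT6C; KRT81, KRT83 and KRT86; KRT33A and KRT33B; KRT14, KRT16 and KRT17), so their values are uncertain. The input libraries were not analysed here.

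Genes and canonical TSSs were those of GENCODE release 44. The 55 members, the gene lists and the keratin classes were chosen with earlier results of these data known. Named genes were the 6 luminal and basal keratins, those with an H3K27ac promoter peak, the 3 lowest and 3 highest ratios of each mark that had the sign of a fall or a rise, and the strongest promoters of H3K18ac in 1 line only. Other keratins and regions, and the genes of the partner lists, were named after their values were seen. Overlapping peaks were merged, with the length-weighted mean as the value of a region. No test was made, since each mark and line is 1 pooled list. Results were recomputed under 11 alternatives, and under 1 chosen after seeing the data. The peak functions were tested on simulated peaks. The scripts ran in Python 3.11.15 (pandas 2.3.3, numpy 2.4.6, statsmodels 0.14.6, matplotlib 3.10.9). Results for some marker genes are not reported here.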

Additional observations from a re-analysis of the deposited data

How the results depend on the processing

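No paired analysis was possible because the libraries of each mark and line were pooled by the authors. For the same reason no library could be left out. Of the 130 recomputed counts, medians and covered lengths, 85 stayed close to the main value (counts and lengths within 1.5 times, medians within the order-statistic interval over the genes) and 45 moved. For H3K27ac this interval ran from −0.88 to −0.04, the lowest and highest ratios of the 7 genes, so it could hardly show a move. The H3K27ac median of −0.63 was −0.23 with 2000 bp, around every TSS and over merged peaks. It was −0.21 with 2000 bp upstream to 500 bp downstream of every TSS and −0.25 after rescaling. With the limits on fold enrichment, on the q-value or on peak numbers it was −0.43, and in the other settings −0.63. A setting in which either line lost the peak gave no ratio, as for H3K27ac at KRT7 with 500 bp and under the stricter peak limits. All 213 log2 ratios of named genes that could be recomputed stayed within a factor of 1.5, and 6 changed sign. Under the rescaling these were H3K27ac at KRT18 (0.18) and KRT2 (0.09) and H3K18ac at KRT2 (0.09) and KRT36 (0.11), and over merged peaks H3K18ac at KRT8 (0.15) and KRT80 (−0.07). The cause of each move was not tested, except that stricter peak limits leave fewer peaks by construction.

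With a window of 2000 bp, 12 keratin promoters had H3K27ac in C4-2BER, 3 were increased (KRT6B, KRT32 and KRT19) and 1 decreased, and for H3K18ac 1 was increased and 7 decreased. With 500 bp, 4 had decreased H3K27ac (KRT7, KRT4, KRT36 and KRT15) and 1 increased H3K18ac. With 2000 bp upstream to 500 bp downstream of every TSS, 13 had H3K27ac in C4-2BER, 3 were increased and 1 decreased. With 1000 bp around every TSS, 1 had increased H3K27ac (KRT79), and KRT19 was decreased, opposite to its call with 2000 bp. With 200 bp of the window covered, or with means over merged peaks, 1 had increased H3K18ac.

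With a fold enrichment of at least 4, 4 promoters had H3K27ac in C4-2BER, 6 had H3K18ac in C4-2B and 5 in C4-2BER, and 3 had decreased H3K18ac. With −log10 q-values from 5 upward these were 4, 11, 13 and 3, and 5 had increased H3K18ac. With equal numbers of the highest-fold peaks, 4 had H3K27ac in C4-2BER, 20 and 15 had H3K18ac, and 4 had increased H3K18ac.

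Counts that stayed close could hold other genes. Under each of these 3 peak limits the decreased H3K27ac promoters were KRT7 and KRT6C in place of KRT4 and KRT36, and with equal numbers of peaks 9 had decreased H3K18ac, of which KRT37 and KRT38 were among the 11 of the report.

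Covered lengths fell with stricter peaks. With the limits on fold enrichment, on the q-value and with equal numbers of peaks in turn, H3K27ac covered 17.1, 18.5 and 20.2 kb of the chromosome 17 cluster in C4-2B and 20.7, 30.8 and 30.3 kb in C4-2BER, and H3K18ac covered 21.0, 47.3 and 79.7 kb in C4-2B and 36.5, 78.0 and 85.6 kb in C4-2BER. On chromosome 12, H3K18ac covered 80.6, 151 and 168 kb in C4-2B and 102, 193 and 188 kb in C4-2BER. There H3K27ac covered 50.1 kb in C4-2B and 59.5 kb in C4-2BER under the limit on fold enrichment. Under the limit on the q-value H3K27ac covered 52.8 and 63.8 kb. With equal numbers of peaks, H3K27ac covered 63.3 kb of the chromosome 12 cluster in C4-2B and 62.7 kb in C4-2BER, so the higher coverage in C4-2BER was not seen there.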
